A study of Mus musculus with 6 samples.

Results

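The glucocorticoid receptor gene Nr3c1, the enzyme genes Hsd11b1 and Hsd11b2 and 7 genes induced by glucocorticoids (Tsc22d3, Fkbp5, Per1, Zbtb16, Klf9, Ddit4 and Sgk1) were followed on Mouse430_2 arrays of fetal mouse lung. Every probe set whose annotation names exactly 1 gene, that gene being one of these 10, was taken. This gave 28 probe sets of the 45037 that are not controls, and 10 genes of 18193. Lungs were collected from mouse embryos at E18.5, and 3 arrays titled wild-type (WT 1 to 3) were compared with 3 titled GATA6 KO (KO 1 to 3), GATA6 being a zinc finger transcription factor. The labels give no strain, no other allele and no treatment. How Gata6 was deleted, in which cells, and whether an array holds the RNA of 1 embryo are not given in the sources used here, so errors measure the spread between arrays, which may be technical.

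Glucocorticoids such as corticosterone enter cells, bind the receptor held in a chaperone complex and move it to the nucleus, where it binds DNA and switches target genes on or off. The enzyme 11-beta-hydroxysteroid dehydrogenase type 1, from Hsd11b1, regenerates active corticosterone inside cells, and the type 2 enzyme, from Hsd11b2, inactivates it. Late in gestation the fetal lung depends on this pathway to thin its walls and mature before birth, and most mice that lack the receptor die at birth with immature lungs.

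Promoter windows of the genes were taken from the RefSeq promoters of GRCm38.p6. The chromosome that carries Nr3c1 was left out of this choice, so windows of Nr3c1 were not looked at. The whole table, used for the shares below, kept that chromosome. Of the 10 genes, 7 then had entries, with 15 windows of 250 bases before a transcript start: Hsd11b1, Tsc22d3, Fkbp5, Per1, Klf9, Ddit4 and Sgk1. The windows were searched on both strands for the full palindromic glucocorticoid response element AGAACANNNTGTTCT, for the hexamer AGAACA, the single receptor site that lies inside it, and for the E-box CACGTG, the site of the clock proteins. The full palindrome was found in 3 of 32851 windows of the whole table (0.00913%), and 1 of these lies upstream of an Sgk1 start. The hexamer occurs in 16.1% of all windows and in 4 of the 15, and the E-box in 6.02% and in 3. A match is a match of letters only. The 3 windows with an E-box are shown because they include the full palindrome and belong to genes whose array values are given below. Capitals mark the full palindrome and the E-box. The Sgk1 window, chr10:21993640-21993889 on the plus strand, has its E-box 246 to 241 bases and its palindrome 189 to 175 bases before the start. The Per1 window is chr11:69098699-69098948 on the plus strand, and the Fkbp5 window chr17:28486150-28486399 on the minus strand, with E-boxes that begin 166 and 169 bases before the start.
Sgk1: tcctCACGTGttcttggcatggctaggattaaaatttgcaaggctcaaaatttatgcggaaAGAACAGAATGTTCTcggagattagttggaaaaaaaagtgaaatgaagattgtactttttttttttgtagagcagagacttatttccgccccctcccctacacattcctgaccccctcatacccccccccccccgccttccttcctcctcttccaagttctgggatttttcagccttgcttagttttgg
Per1: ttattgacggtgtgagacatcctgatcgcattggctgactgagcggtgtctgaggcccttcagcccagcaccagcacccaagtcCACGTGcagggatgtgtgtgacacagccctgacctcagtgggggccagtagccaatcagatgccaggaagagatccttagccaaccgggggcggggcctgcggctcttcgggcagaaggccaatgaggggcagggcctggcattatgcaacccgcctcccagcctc
Fkbp5: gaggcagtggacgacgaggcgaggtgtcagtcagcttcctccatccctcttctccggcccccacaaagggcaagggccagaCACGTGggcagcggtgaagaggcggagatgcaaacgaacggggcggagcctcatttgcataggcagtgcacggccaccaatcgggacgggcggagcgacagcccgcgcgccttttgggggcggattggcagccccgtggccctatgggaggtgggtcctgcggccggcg

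The deposited intensities are linear. They are given here as log2 after adding 16, and differences are on that scale, which understates changes of dim probe sets. A probe set is called bright where at least 1 group mean is above 5.30, the median of all probe set means, and 23 of the 28 were bright. Levels of different probe sets are not comparable with each other, and names with _s or _x mark probe sets that may also match other transcripts. Gata6 itself averaged 10.60 ± 0.46 over WT 1 to 3 and 11.39 ± 0.19 over KO 1 to 3 (SD, n = 3 each) on its brightest probe set, 1425464_at, which read 11.12, 10.26 and 10.42 in WT 1 to 3 and 11.58, 11.39 and 11.19 in KO 1 to 3. All 3 of its bright probe sets had the higher mean under the KO label, by 0.79, 0.82 and 0.36, and on 1425464_at and 1425463_at every array labelled KO was above every array labelled WT (adjusted p = 0.963 in limma for each). The level of the targeted gene thus goes against the KO label, and directions below are between labels. The position of these probe sets against the deletion is not known here. Markers of lung epithelium were bright in 8 of 8 genes, of mesenchyme in 5 of 6 and of endothelium in 4 of 4. Among other tissues heart markers were bright in 4 of 5 and liver markers in 2 of 4 genes, and thymus and brown fat markers in 0 of 4 and 0 of 2. Fluidics station 1 held WT 1 and WT 2, and station 2 held WT 3 and the arrays labelled KO. The arrays WT 1, KO 2 and KO 3 carried more signal on bright probe sets without a gene name, with a median of -0.87, -1.19 and -0.66 log2 relative to named ones, against -1.98, -1.88 and -1.97 in WT 2, WT 3 and KO 1.

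No glucocorticoid gene passed the test between the labels. Of the 28 probe sets, 0 passed an adjusted p of 0.05 in limma (lowest adjusted p = 0.963) and 0 had an unadjusted p under 0.05. Without KO 1 the latter count was 4 of 28, all bright and lower under the KO label (lowest adjusted p = 0.682 in limma). They came from Fkbp5 and Klf9. Without KO 1 such a p was found for 6.71% of all probe sets and 10.3% of bright ones. Over all 45037 probe sets 0 passed (0.00%), and 1394 (3.10%) had an unadjusted p under 0.05, or 5.12% of bright ones. Among the 23 bright probe sets 16 had the lower mean in the arrays labelled KO and 7 the higher, with a median difference of -0.08. Over all bright probe sets 51.3% were lower, with a median of -0.01. In all 23 the difference was smaller than the larger of the 2 group SDs, and the 95% confidence interval contained 0. In 20 of the 23 that interval lay within a 2-fold change of intensity + 16 in either direction. A larger change on that scale is outside their intervals. For probe sets with intensities near 16 the same interval can hold a larger change of the intensity itself. The labels overlapped in 23 of 23, where 9.68% of all bright probe sets did not overlap. Centring each array on its median turned the count of lower means to 20 of 23, and a covariate for the unnamed signal turned it to 12 of 23. Within station 2, where WT 3 stands alone for its label, the brightest probe sets of the 10 genes differed from -0.52 (Sgk1) to 0.07 (Hsd11b1). With 1 array in an arm these are values only.

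**Figure D1:**
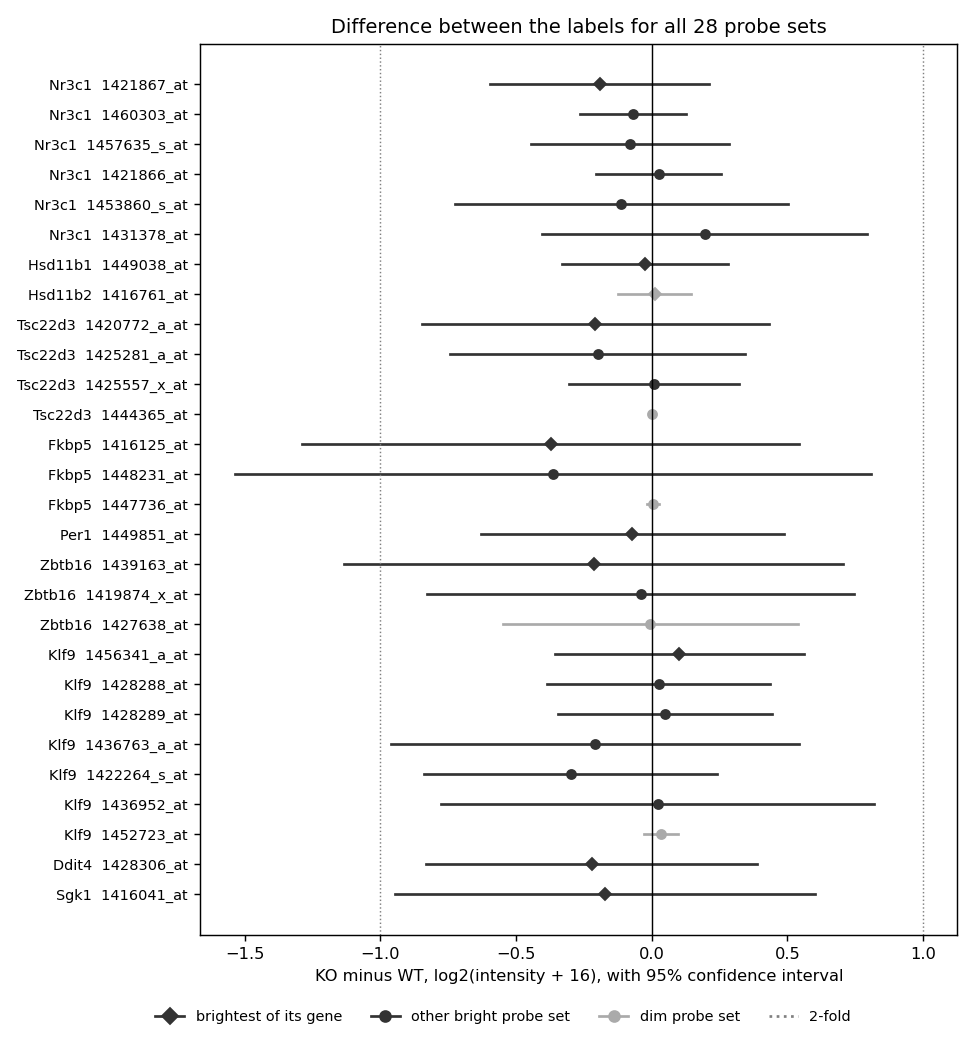
Difference between the arrays labelled KO and WT (x axis, log2(intensity + 16)) for each of the 28 probe sets (y axis), with 95% confidence intervals from limma. Dotted lines mark a 2-fold change of intensity + 16. Every interval crosses 0, and the widest is that of the dimmer bright Fkbp5 probe set, from -1.54 to 0.81.

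The receptor gene Nr3c1 had 6 probe sets, all bright, and the labels overlapped on each of them. Its brightest probe set, 1421867_at, read 12.16, 11.83 and 11.65 in WT 1 to 3 and 11.52, 11.68 and 11.87 in KO 1 to 3. WT 1 was the highest and KO 1 the lowest, and KO 3 lay above WT 2 and WT 3. Group means were 11.88 ± 0.26 and 11.69 ± 0.18 (SD, n = 3 each), a difference of -0.19 (SE 0.16; 95% interval -0.60 to 0.21) which did not pass in limma (adjusted p = 0.963). It was -0.05 without WT 1, -0.10 without KO 1 and -0.31 without WT 3. The second probe set, 1460303_at, varied less: 11.81, 11.86 and 11.72 in WT 1 to 3 and 11.71, 11.67 and 11.80 in KO 1 to 3. Its difference was -0.07 with an interval of -0.26 to 0.13, or a fold between 0.832 and 1.09.

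The other 4 Nr3c1 probe sets, all bright, did not point one way. 1457635_s_at read 11.31, 10.90 and 11.24 against 10.92, 11.04 and 11.25, and 1421866_at read 9.23, 9.15 and 9.13 against 9.17, 9.14 and 9.28. Each of these had labels that overlapped almost fully, with differences of -0.08 (SE 0.15) and 0.03 (SE 0.09). The dimmer 1453860_s_at ranged from 7.99 in KO 3 to 8.86 in KO 1, both labelled KO, with a difference of -0.11 (SE 0.25). The dimmest, 1431378_at, ranged from 5.16 in KO 3 to 5.89 in KO 2 and differed by 0.19 (SE 0.24). Over the 6 probe sets 4 had the lower mean under the KO label and 2 the higher.

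Hsd11b1, whose enzyme renews active hormone, read 13.16, 12.93 and 12.90 in WT 1 to 3 and 12.80, 12.99 and 13.13 in KO 1 to 3. The labels covered almost the same range, and KO 3 lay just below WT 1, the highest array. The group means came to 12.99 ± 0.14 and 12.97 ± 0.17 (SD, n = 3 each), a difference of -0.02 (SE 0.12; 95% interval -0.33 to 0.28), or a fold of 0.984 with bounds of 0.796 and 1.22. Hsd11b2, whose enzyme removes active hormone, read near the floor on its single probe set, at 4.98, 4.99 and 5.04 against 5.08, 5.02 and 4.95. These are linear intensities from 14.9 to 17.9, so its difference of 0.01 (SE 0.06) describes a dim probe set and no change in a measured level.

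Tsc22d3 encodes GILZ, an anti-inflammatory leucine zipper protein induced by glucocorticoids. Its brightest probe set read 10.59, 11.30 and 10.54 in WT 1 to 3 and 10.89, 10.61 and 10.30 in KO 1 to 3. WT 2 stood above the other 5 arrays, and KO 3 was the lowest. The difference was -0.21 (SE 0.26; adjusted p = 0.963 in limma), and 0.04 without WT 2. A further probe set, 1425281_a_at, also had WT 2 highest at 10.58 and KO 3 lowest at 9.75 and differed by -0.20 (SE 0.22). The remaining probe sets were dim or nearly so: 1425557_x_at lay between 5.48 and 5.62, and 1444365_at between 4.32 and 4.33, at the floor.

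Fkbp5, a co-chaperone that lowers the receptor's affinity for hormone and is itself induced by it, had the largest spread over the arrays labelled KO after Zbtb16 among the 9 bright genes. Its brightest probe set read 10.19, 10.83 and 10.14 in WT 1 to 3 and 10.77, 9.71 and 9.57 in KO 1 to 3. KO 1 sat beside WT 2 at the top, while KO 2 and KO 3 lay below all 3 arrays labelled WT. In linear intensity the arrays ran from 744.6 in KO 3 to 1805 in WT 2. Its means were 10.39 ± 0.38 and 10.02 ± 0.65 (SD, n = 3 each), a difference of -0.37 (SE 0.37; 95% interval -1.29 to 0.54; adjusted p = 0.963 in limma). Leaving out KO 1 gave a difference of -0.75, and leaving out WT 2 alone or KO 3 alone gave -0.15. The probe set 1448231_at gave 8.09, 9.04 and 8.46 against 9.12, 7.83 and 7.54, with the same pair of arrays on top and the same pair at the bottom, and differed by -0.36 (SE 0.48), or -0.84 without KO 1. The third, 1447736_at, stayed between 4.44 and 4.47, at the floor.

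Zbtb16, which encodes the transcriptional repressor PLZF, showed a similar spread. 1439163_at read 8.80, 9.05 and 8.62 in WT 1 to 3 and 9.32, 7.88 and 8.63 in KO 1 to 3. Both the highest and the lowest array carried the KO label, with an SD of 0.72 there against 0.21. The difference of -0.21 (SE 0.37) became -0.57 without KO 1 and 0.15 without KO 2, which alone turned its sign. 1419874_x_at had KO 1 highest at 8.64 and KO 2 lowest at 7.69 as well, and differed by -0.04 (SE 0.32). The dim 1427638_at ranged from 4.61 in KO 3 to 5.38 in KO 1.

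Per1, a clock repressor that glucocorticoids induce directly, read 8.46, 8.71 and 8.68 in WT 1 to 3 and 8.90, 8.10 and 8.63 in KO 1 to 3. The arrays labelled WT lay between the extremes of those labelled KO. The difference was -0.07 (SE 0.23; 95% interval -0.63 to 0.49), -0.25 without KO 1 and 0.15 without KO 2. Ddit4, an inhibitor of mTORC1 signalling that glucocorticoids, hypoxia and stress all raise, read 10.54, 10.82 and 10.82 against 10.94, 10.01 and 10.57. KO 1 and KO 2 again bracketed the rest. Its difference was -0.22 (SE 0.25; 95% interval -0.83 to 0.39), -0.44 without KO 1 and 0.03 without KO 2.

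Sgk1, a kinase that raises sodium channel activity, read 10.17, 10.34 and 10.77 in WT 1 to 3 and 10.87, 10.09 and 9.79 in KO 1 to 3. KO 1 and WT 3 were highest, and KO 2 and KO 3 lay below WT 1. Mean levels were 10.42 ± 0.31 and 10.25 ± 0.56 (SD, n = 3 each), a difference of -0.17 (SE 0.31; 95% interval -0.95 to 0.60). It was -0.48 without KO 1 and 0.06 without KO 3. WT 3 was the highest array of its label, and against it alone, within station 2, the difference was -0.52.

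Klf9, a zinc finger repressor induced by glucocorticoids and thyroid hormone, had 7 probe sets, 6 of them bright. The brightest, 1456341_a_at, read 12.89, 13.14 and 13.38 in WT 1 to 3 and 13.44, 12.94 and 13.34 in KO 1 to 3, a difference of 0.10 (SE 0.19). WT 1 and KO 2 were the low arrays and KO 1 the highest. 1428288_at and 1428289_at ran from 11.59 to 12.09 and from 11.54 to 12.12, with KO 1 on top in both, and differed by 0.03 (SE 0.17) and 0.05 (SE 0.16). 1436763_a_at and 1422264_s_at differed by -0.21 (SE 0.30) and -0.30 (SE 0.22), and KO 2 was the lowest array in both, at 8.51 and 8.20; without KO 1 they differed by -0.53 and -0.50. The bright probe sets thus split into 4 higher and 2 lower, 1436952_at being among the higher at 0.02 (SE 0.32). The 1 member probe set whose labels did not overlap was the dim 1452723_at, at 4.39 to 4.40 over WT 1 to 3 and 4.40 to 4.49 over KO 1 to 3, where 8.48% of all probe sets did not overlap.

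**Figure D2:**
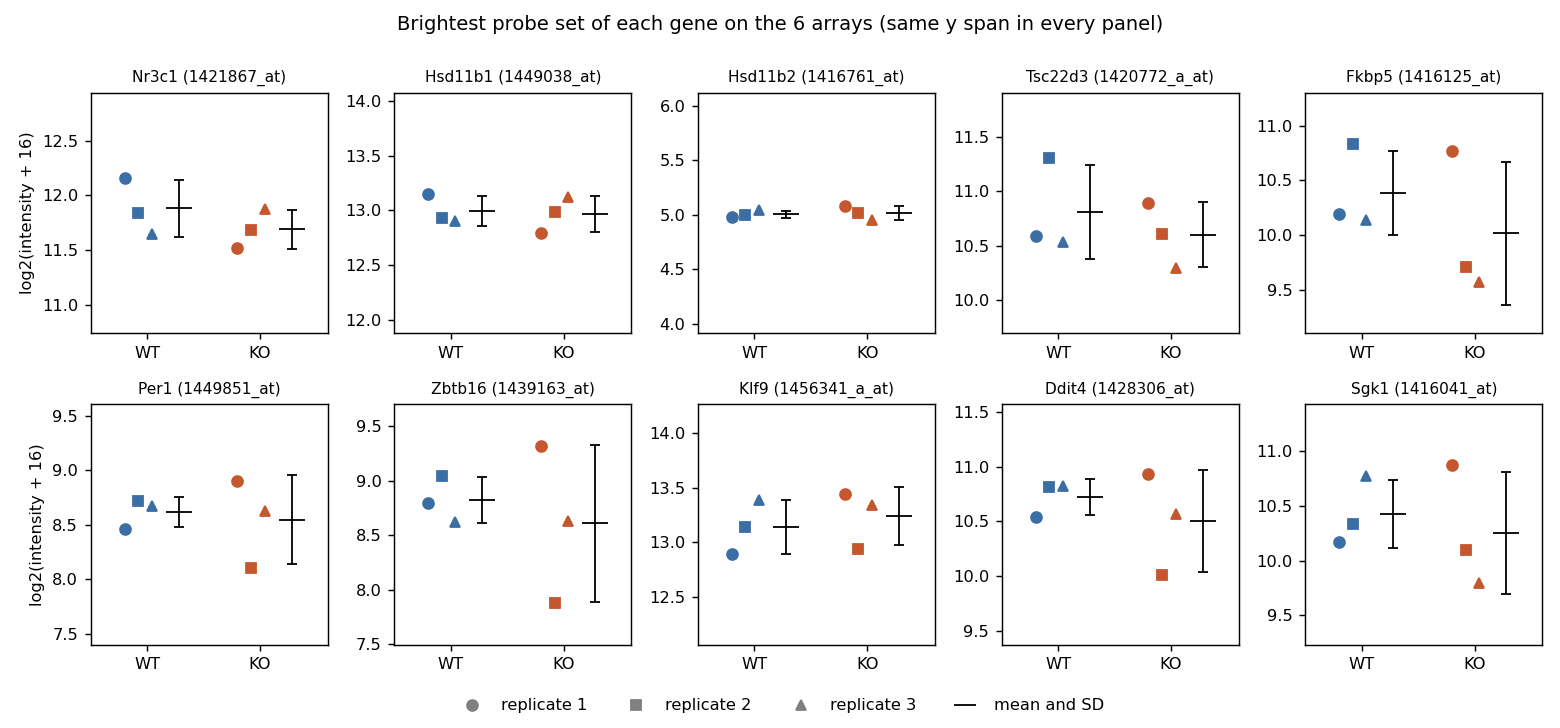
Brightest probe set of each of the 10 genes: log2(intensity + 16) on the y axis, with 1 symbol per array (shape gives the replicate number) and the mean with SD beside each label; all panels have the same y span. The labels overlap in all 10 panels. The KO 1 circle tops the panels of Per1, Zbtb16, Klf9, Ddit4 and Sgk1, and also that of Hsd11b2, which is near the floor.

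For most response genes KO 1 read high and KO 2 low, although both carry the KO label. KO 1 was the highest array in 11 of the 23 bright probe sets (47.8%), against 24.9% of all bright probe sets. KO 2 was the lowest in 8 (34.8%, against 12.5%) and KO 3 in 7 (30.4%, against 28.5%). Counting 1 probe set per gene, KO 1 lay above the gene's own mean in 7 of 9 bright genes, which are the 7 response genes, and KO 2 in 1 of 9. Over all bright genes the shares were 62.6% and 43.5%. On these probe sets Nr3c1 and Hsd11b1 had KO 1 as their lowest array, at -0.27 and -0.19 from the gene mean. Fkbp5, Zbtb16 and Sgk1 had KO 1 at 0.57, 0.61 and 0.53. The other Nr3c1 probe sets had other arrays lowest, and 1453860_s_at had KO 1 highest, at 8.86. These ranks are a description of 6 arrays and were noted after the values were seen.

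**Figure D3:**
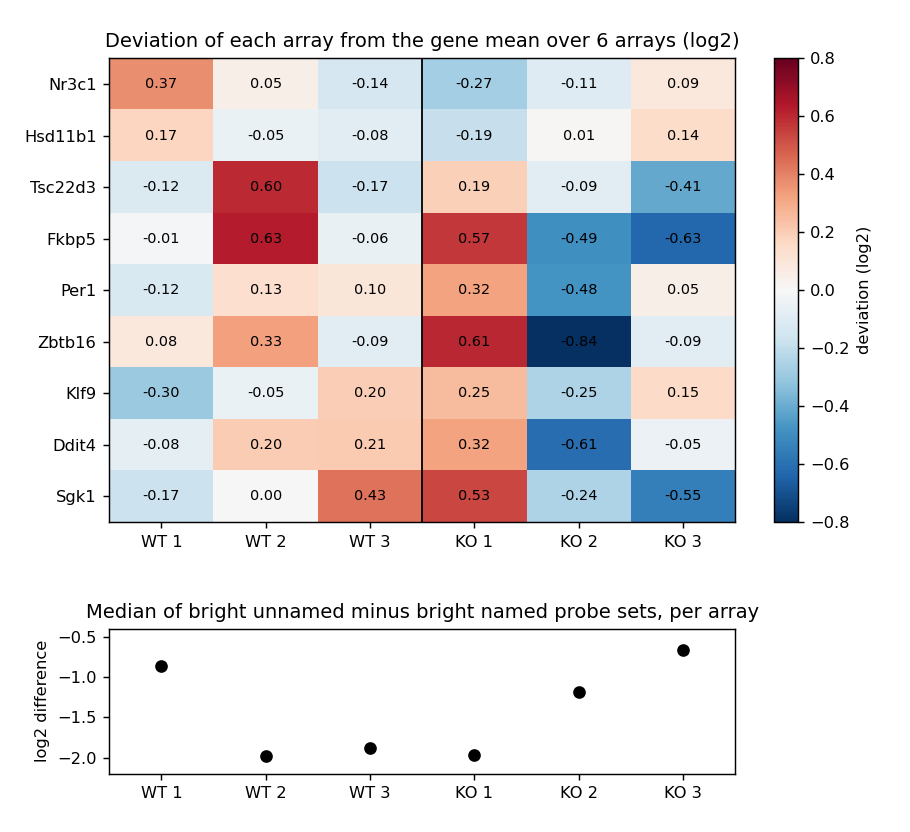
Upper panel: deviation of each array (columns) from the mean over 6 arrays, in log2, for the brightest probe set of the 9 bright genes (rows). Lower panel: signal of bright probe sets without a gene name relative to named ones, as a difference of medians per array (log2). On the probe sets drawn, KO 1 is above the mean for all 7 response genes and below it for Nr3c1 and Hsd11b1. Other Nr3c1 probe sets, not drawn, have other arrays lowest. The unnamed signal is lowest in WT 2 and KO 1, with WT 3 close to them.

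Other features of the arrays moved in part with this order. The arrays WT 2 and KO 1, highest for Fkbp5, had the lowest unnamed signal, and KO 3, lowest for Fkbp5, had the highest. WT 3 broke this match. Its Fkbp5 value of 10.14 lay below the 10.19 of WT 1, while its unnamed signal was -1.88 against -0.87 in WT 1. With that signal as a covariate some differences came nearer to 0 and others moved away from it. That of Fkbp5 was -0.17 with it and -0.37 without, and that of Sgk1 0.01 and -0.17. That of Hsd11b1 was -0.10 and -0.02, and that of Klf9 0.17 and 0.10. That of Nr3c1 was -0.29 (SE 0.09, unadjusted p = 0.0243 and adjusted p = 0.786 in limma) and -0.19 on its brightest probe set. With the covariate its other probe sets ran from -0.15 (1457635_s_at) to 0.30 (1431378_at). In that limma fit 9.38% of bright probe sets had an unadjusted p under 0.05. Endothelial markers, 4 of 4 bright, read lower in all 4 genes, with a median of -0.75. Their summed intensity ran from 2439 to 4722 over WT 1 to 3 and from 1858 to 3233 over KO 1 to 3, where KO 1 had the highest value and KO 2 and KO 3 had 1915 and 1858. The immediate early genes, 6 of 7 bright and Fosb at the floor, summed to 3242, 5000 and 5241 in WT 1 to 3 and 5044, 2860 and 2244 in KO 1 to 3. Liver markers summed to 1367 in KO 1 and to 38.1 to 548.4 in the other arrays, with 2 of 4 genes dim. The sum in KO 1 came mostly from Alb, at 10.31 there and 8.49 or less elsewhere. Afp, the other bright gene, was highest in WT 2 at 7.85 and read 6.66 in KO 1, so the 2 bright genes did not share their highest array. Their mean log2 was 8.48 in KO 1 and 8.02 in WT 2, the next highest. Lung epithelium markers, 8 of 8 bright, summed to 63390 in KO 1 and to 98550 to 156900 in the other arrays. Their mean log2 was 11.58 in KO 1 and 11.48 to 12.05 elsewhere. Sftpc was lowest in KO 1, at 12.71 against 15.37 to 15.79 in the other arrays. Ager was also lowest in KO 1, while Epcam, Cdh1 and Foxj1 were highest there. Mesenchyme markers, 5 of 6 bright, were highest in KO 1 and lowest in KO 2 by sum (65770 and 50500) and by mean log2. Blood and immune markers, 5 of 6 bright, were lowest in KO 1 by both, with sums of 7855 there and 13700 to 35110 elsewhere. So were heart markers, 4 of 5 bright, with sums of 2588 in KO 1 and 2941 to 7291 elsewhere. The part of unnamed signal, marker genes and immediate early genes in the order of the arrays was not tested. In whole lung, fewer cells of a type and less RNA per cell cannot be told apart.

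No gene of the machinery around the receptor passed the test. Of 8 chaperone genes listed, 5 had a probe set of their own, and 0 passed over all probe sets in limma (1 had an unadjusted p under 0.05, Hsp90aa1, where 6.25% of all bright genes did). Of the 5, 4 read lower and 1 higher (median -0.04, against 0.003 over all genes and -0.02 over bright genes). Hsp90aa1, the chaperone that holds the receptor ready for hormone, read 13.35, 13.37 and 13.43 against 13.60, 13.70 and 13.67, so all arrays labelled KO were above all labelled WT. Its difference was 0.28 (SE 0.08; adjusted p = 0.963 in limma), and all 3 of its bright probe sets were higher. Hspa8, which loads client proteins, differed by -0.04 (SE 0.11). Of 9 coactivators and corepressors 7 were measured and 0 passed or had an unadjusted p under 0.05 in limma, 4 higher and 3 lower (median 0.003), with Ncoa1 at 0.04 (SE 0.24) and Ncoa2 at -0.05 (SE 0.13).

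Genes of steroid supply were mostly at the floor. Of 8 listed, 7 were measured and 1 was bright, and 0 passed in limma or had an unadjusted p under 0.05. The bright one was H6pd, which supplies the NADPH for the type 1 enzyme: it read 10.62, 10.84 and 10.56 against 10.45, 10.46 and 10.59, with KO 3 inside the range of WT. The difference was -0.17 (SE 0.10; adjusted p = 0.963 in limma). Nr3c2, the mineralocorticoid receptor that also binds corticosterone, lay between 4.64 and 5.05 on 5 arrays and at 6.02 in KO 1, a difference of 0.33 (SE 0.37).

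Of 20 further glucocorticoid response genes, all measured and 19 bright, 0 passed over all probe sets in limma, and 3 had an unadjusted p under 0.05 (Lcn2, Anxa1 and Bcl6), or 15% against 6.25% of bright genes. Under the KO label 11 were higher and 9 lower, with a median of 0.01, and in 5 of 20 the labels did not overlap, against 11.4% of bright genes. Cebpd, a transcription factor induced early by glucocorticoids, read 11.76, 11.88 and 11.67 against 11.57, 11.27 and 11.62, all arrays labelled KO below all labelled WT, with a difference of -0.28 (SE 0.12). Its relative Cebpb differed by -0.13 (SE 0.10).

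The remaining 4 genes of this list whose labels did not overlap were higher in the arrays labelled KO, and they are named because of those values. Lcn2, the iron-siderophore binding protein of innate defence, read 10.17, 10.98 and 10.71 in WT 1 to 3 and 11.56, 12.63 and 12.28 in KO 1 to 3. KO 1 exceeded the highest array labelled WT, and KO 2 and KO 3 exceeded it further. Mean levels were 10.62 ± 0.41 and 12.15 ± 0.54 (SD, n = 3 each), a difference of 1.54 (SE 0.33; 95% interval 0.71 to 2.36), or 2.90-fold, with an adjusted p of 0.963 in limma. Anxa1, the anti-inflammatory annexin A1, read 13.82, 13.62 and 13.79 against 14.19, 14.18 and 14.26, a difference of 0.47 (SE 0.09). Bcl6, a transcriptional repressor, differed by 0.55 (SE 0.16) and was higher on both of its probe sets. The fourth, Nfkbia, the inhibitor of NF-kappa-B, differed by 0.16 (SE 0.11), and 2 of its 5 bright probe sets were lower. None of the 4 passed over all probe sets.

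The lists that share inputs with Per1 and Ddit4 held no gene past the threshold in limma either, with 1 unadjusted p under 0.05 in each of the clock, hypoxia and immediate early lists (Nr1d2 of 13 genes, Pgk1 of 14 and Fos of 7). These are also the single genes of each list whose labels did not overlap. Over all bright genes 6.25% had such a p and 11.4% did not overlap, against 7.69%, 7.14% and 14.3% of these lists for either measure. Of 13 clock genes 8 read higher and 5 lower (median 0.003). Arntl, the partner of CLOCK, differed by -0.21 (SE 0.17) and Clock by 0.10 (SE 0.29). Nr1d2, a clock repressor named for its value, was the 1 whose labels did not overlap, at 0.53 (SE 0.15). Among 14 genes of hypoxia and cell stress 8 read higher and 6 lower (median 0.19). Vegfa, the endothelial growth factor, differed by -0.51 (SE 0.43) and the glucose transporter gene Slc2a1 by 0.22 (SE 0.15). Pgk1, a glycolytic enzyme also named for its value, was higher without overlap at 0.45 (SE 0.16). Fos, of the immediate early genes, was the 1 of 7 whose labels did not overlap, lower at -0.43 (SE 0.15), while Fosb was at the floor.

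**Figure D4:**
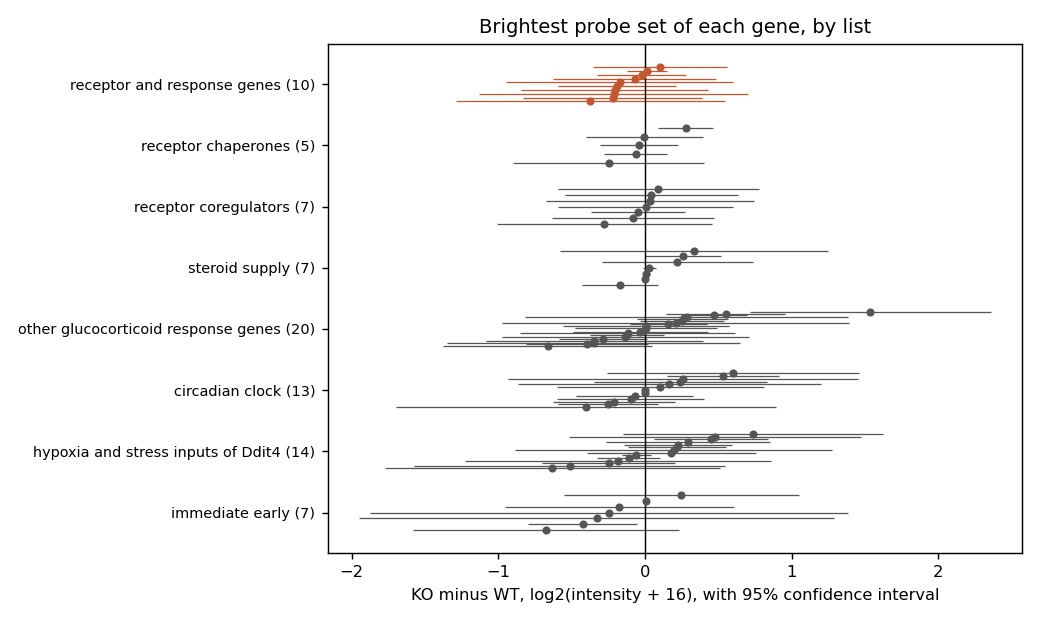
Difference between the arrays labelled KO and WT (x axis, log2(intensity + 16)) with 95% confidence intervals for the brightest probe set of each gene, grouped by list (y axis, number of measured genes in brackets). The 10 receptor and response genes all have intervals across 0, and of the genes drawn, which leave out the cell type and tissue markers, the point farthest from 0 is Lcn2 at 1.54.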

How the data were processed

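Total RNA was measured on 6 Mouse430_2 arrays. The authors deposited linear intensities per probe set. GCRMA and MAS5 are named in the submitters' processing notes with no role or order, so the method behind them is not given in the sources used here. The arrays were taken as normalised to each other. Values were transformed to log2 after adding 16. Of 45101 probe sets, 64 controls were left out. The array annotation named exactly 1 gene for 34945, several for 932 and none for 9160, and 34741 were renamed through gene IDs of GRCm38.p6. All 45037 probe sets were fitted together with limma 3.58.1 in R 4.3.3 (lmFit, eBayes with trend), two-sided, adjusted by Benjamini-Hochberg over all of them. For lists, each gene was represented by its brightest probe set. The members, the lists and the covariate for unnamed signal were chosen with earlier results of these data known. Named are all members, the first 2 measured genes of each pathway list, and genes said to be named for their values. Marker lists are given by counts, sums and means, with single markers named where they set a sum or go against it. The numbers 1 to 3 were not taken as pairs, since residuals of same-numbered arrays correlated at -0.757, 0.0199 and -0.483. Scan order follows the labels, so the effects of both cannot be told apart. In simulated data with 45037 probe sets, 16 of 100 bright probe sets changed by 1 log2 and 49 of 100 changed by 2 log2 were recovered. The simulated noise was drawn independently for each probe set and array. Effects shared between probe sets, as of station or unnamed signal, were not simulated, so these shares may not hold for the real arrays. A probe set that did not pass may still differ. The number of arrays limits the precision.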

Additional observations from a re-analysis of the deposited data

How the results depend on the processing

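Over 19 alternatives, 0 of the glucocorticoid probe sets passed the threshold in any, with a lowest adjusted p from 0.517 (array quality weights) to 1 in limma, and 0 passed with the replicate block, which changed no call. Over all probe sets the count was 0 in 16 alternatives, 1 with each array centred on its median, 1 with one probe set per gene, and 37, of which 36 were lower, with fluidics station as a block. Fkbp5 kept its sign throughout, from -0.748 to -0.125. Signs turned for small differences and also for larger ones, such as Vegfa at -0.51 and Nr3c2 at 0.33 in the main fit. Both with station as a block and within station 2, the difference was 0.0408 for Nr3c1, 0.0713 for Hsd11b1, -0.0261 for Hsd11b2, 0.065 for Tsc22d3, -0.145 for Klf9, -0.19 for Ncoa1 and 0.16 for Vegfa; those fits rest on WT 3 as the 1 array labelled WT. With the covariate for unnamed signal it was 0.0041 for Per1, 0.01 for Sgk1, 0.0214 for Ncoa2 and -0.0781 for Clock, and with array quality weights 0.0807 for Sgk1 and -0.0096 for Clock. Median centring gave -0.0233 for Hsd11b2 and -0.0306 for Fosb, and quantile normalisation -0.019 for Hsd11b2. With the covariate 1 of the 28 probe sets, of Nr3c1, had an unadjusted p under 0.05 in limma, and without KO 1 there were 4. With the covariate 5.85% of all probe sets and 9.38% of bright ones had such a p. Leaving out 1 array at a time, the difference ran from -0.308 to -0.0523 for Nr3c1, -0.438 to 0.0269 for Ddit4, -0.102 to 0.0632 for Hsd11b1, -0.0225 to 0.0438 for Hsd11b2, -0.0212 to 0.252 for Klf9, -0.25 to 0.15 for Per1, -0.481 to 0.0579 for Sgk1, -0.354 to 0.0387 for Tsc22d3, -0.57 to 0.152 for Zbtb16, -0.112 to 0.353 for Clock, -0.102 to 0.0416 for Hspa8, -0.175 to 0.172 for Ncoa1, -0.148 to 0.0045 for Ncoa2 and -0.0916 to 0.59 for Nr3c2. The cause of these turns was not tested. The filter on dim probe sets removes Hsd11b2, Nr3c2 and Fosb, so it gives no value for them. Probe sets near the floor, such as that of Hsd11b2, carry too little signal over background to show a difference.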
